A study of Rattus norvegicus with 46 samples.

Results

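The genes described here are 10 matrix metalloproteinases of the rat: Mmp2, Mmp3, Mmp9, Mmp11, Mmp12, Mmp13, Mmp14, Mmp16, Mmp19 and Mmp23. They were taken by symbol from the 11 deposited tables of gene results, which list 23747 symbols, and their levels came from the deposited transcript counts of 46 libraries. All 10 were found in the count table, 9 as 1 transcript and Mmp3 as 2, and all 10 passed the filter on low counts in every fit. RNA was sequenced from rat supraspinatus tendon, a tendon of the rotator cuff that is often torn, and from the subacromial bursa, the thin sac that lies over it. The question behind the series, per its own text, is what the bursa contributes when the tendon is injured.

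The injury was a tenotomy, a surgical cut of the supraspinatus tendon. Uninjured tissue came from rats that had no operation and gave 5 control bursae and 5 control tendons. Injured tissue came from rats killed 3 or 14 days after tenotomy. Where the bursa had been kept, it gave 6 bursae at each day, and the cut tendon beside it gave 6 libraries at each day (bursa intact). Where the bursa had been cut out in the same operation, only the tendon was taken, with 6 libraries at each day (bursa removed). No transgene, drug or further agent is named in the labels. The sources used here name no strain, age or sex, and no library of a sham operation was analysed here, so tenotomy and the surgery around it cannot be told apart. The labels number the libraries of each group without naming the rat, so the p-values measure the spread between these libraries.

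Matrix metalloproteinases are zinc-dependent enzymes that cut collagens, proteoglycans, elastin and other parts of the matrix around cells. Most are made as inactive precursors, are switched on by removal of a propeptide, and are held in check by tissue inhibitors (Timp proteins). In tendon they are known for turning over collagen during healing and in degenerating cuff tendons.

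Promoter sequences are given because Mmp3, Mmp12 and Mmp13 lie in the same stretch of rat chromosome 8. All of these rose in injured tendon, but they did not move alike throughout, since Mmp3 was not called in bursa. RefSeq's promoter table (build GRCr8) matched 5 of the 10 genes, Mmp3, Mmp11, Mmp12, Mmp13 and Mmp23. Mmp2, Mmp9, Mmp14, Mmp16 and Mmp19 had no entry. Mmp10, a stromelysin that is not among the 10 but lies in the same stretch, is added for comparison. Each sequence runs 5′ to 3′ on the gene's own strand and ends at the base before the start that RefSeq's promoter table uses. For Mmp13, Mmp12, Mmp10 and Mmp11 this is the first base of the RefSeq gene, while for Mmp3 it lies 14 bases and for Mmp23 473 bases inside the gene's span, so the Mmp23 sequence is not the stretch before the outermost start. Capitals mark exact matches to the AP-1 motif (TGAGTCA, or TGACTCA on the other strand), the TATA motif (TATAAA, or TTTATA on the other strand) and a Runx motif (AACCACA, or TGTGGTT on the other strand). AP-1 is a dimer of Fos and Jun proteins, and Runx2 is a factor known from bone and cartilage.
Mmp13, chr8:12782669-12782828, plus strand: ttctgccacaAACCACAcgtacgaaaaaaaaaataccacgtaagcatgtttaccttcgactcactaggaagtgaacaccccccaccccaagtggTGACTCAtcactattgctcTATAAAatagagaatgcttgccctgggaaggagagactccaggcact
Mmp12, chr8:12866492-12866651, plus strand: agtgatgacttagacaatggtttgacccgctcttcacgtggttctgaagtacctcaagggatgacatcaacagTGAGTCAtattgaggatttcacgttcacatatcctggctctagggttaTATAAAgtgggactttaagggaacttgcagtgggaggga
Mmp3, chr8:12925121-12925280, plus strand: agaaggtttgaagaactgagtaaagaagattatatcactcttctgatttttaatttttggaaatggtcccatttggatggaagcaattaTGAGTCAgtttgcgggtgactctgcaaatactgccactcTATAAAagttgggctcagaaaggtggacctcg
Mmp10, chr8:12974547-12974706, plus strand: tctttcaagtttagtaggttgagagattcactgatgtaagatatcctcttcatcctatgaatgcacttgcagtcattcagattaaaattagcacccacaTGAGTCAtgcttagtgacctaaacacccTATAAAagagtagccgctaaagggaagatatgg
Mmp11, chr20:12730124-12730283, plus strand: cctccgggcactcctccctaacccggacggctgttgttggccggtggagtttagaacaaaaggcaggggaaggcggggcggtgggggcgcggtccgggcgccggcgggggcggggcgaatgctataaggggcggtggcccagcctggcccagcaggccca
Mmp23, chr5:171524535-171524694, minus strand: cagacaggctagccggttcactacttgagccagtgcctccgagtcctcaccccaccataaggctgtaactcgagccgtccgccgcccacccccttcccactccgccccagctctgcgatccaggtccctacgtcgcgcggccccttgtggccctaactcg

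The AP-1 motif was present in 3 of the 5 genes with a promoter, and these are the 3 on chromosome 8. Its first base lay 66 bases before that start in Mmp13, on the other strand, 87 in Mmp12 and 71 in Mmp3, and 61 in Mmp10. A TATA motif followed it in each, starting 47, 39, 32 and 33 bases before the start in the same order. The Runx motif was found only in Mmp13 among the 5 genes and Mmp10, at 150 bases before the start. Mmp11 and Mmp23 held none of these motifs in the 250 bases searched. The table holds 10 metalloproteinase promoters on chromosome 8, and 6 of them had both the AP-1 and the TATA motif: the 3 described here, Mmp1, Mmp7 and Mmp10. Mmp8 and Mmp20 had the TATA motif without the AP-1 motif, and Mmp1b and Mmp27 had neither. Among 33469 RefSeq promoters searched over the same 250 bases and both strands, 4.05% held the AP-1 motif, 12.9% the TATA motif, 4.59% the Runx motif and 0.574% both AP-1 and TATA. No motif overlapped another kind in these genes. A match describes the letters and does not show that a factor bound there.

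**Figure D1:**
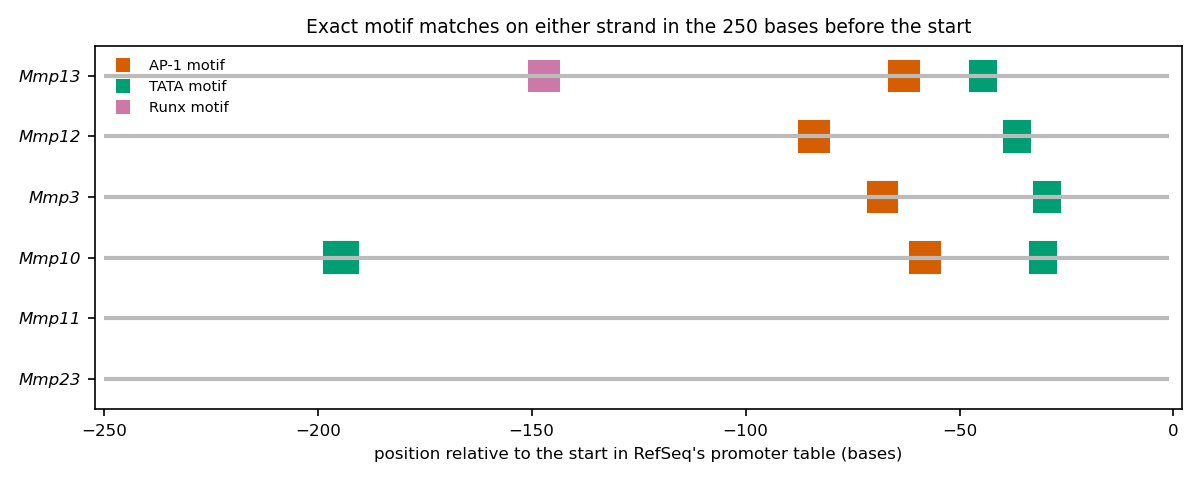
Positions of exact AP-1, TATA and Runx motif matches (coloured boxes) in the 250 bases before the start in RefSeq's promoter table for 5 metalloproteinase genes and Mmp10; the horizontal axis gives bases before the start. Mmp13, Mmp12, Mmp3 and Mmp10 hold an AP-1 match followed by a TATA match, and Mmp11 and Mmp23 hold neither.

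Total estimated counts per library ran from 12425823 to 69947597, with group medians of 15452652 to 21624906, and the largest library was a day 14 bursa. Levels are given in CPM, the count of a gene as a share of all counts in its library multiplied by 1000000, on library sizes scaled by the TMM method. They are not scaled to transcript length, so levels are compared between groups for 1 gene and never between genes. These are bulk tissues, in which fewer cells of a type and less RNA per cell cannot be told apart. Control bursae 1 and 2 stood apart from the other control bursae: transcripts of the mitochondrial genome took 48.9% and 53.5% of their counts against 13.3 to 16.98% in the other 3, and the summed fibroblast markers were 1046 and 831 CPM against 3845 to 6187 CPM. Control bursa 4 held 1938 CPM of tendon cell markers, against 56.4 to 213 CPM in the other control bursae, and 1209 CPM of the 3 cartilage markers matched, against 0.567 to 1.60 CPM. The labels were otherwise checked by markers: summed tendon cell markers were 2024 to 5135 CPM in control tendons. Synovial lining markers, which would mark a bursa, were lower in control bursae (284 to 1233 CPM) than in control tendons (3275 to 4800 CPM), while the 4 adipocyte markers matched were higher (3923 to 11471 against 7.64 to 146 CPM). Control tendons carried 19250 to 33377 CPM of the 3 skeletal muscle markers matched, and injured tendons 981 to 13470 CPM. At day 3 the tendon numbered 1 in the bursa-removed group had the highest of these, 13470 CPM against 1329 to 4590 CPM in the other 5.

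**Figure D2:**
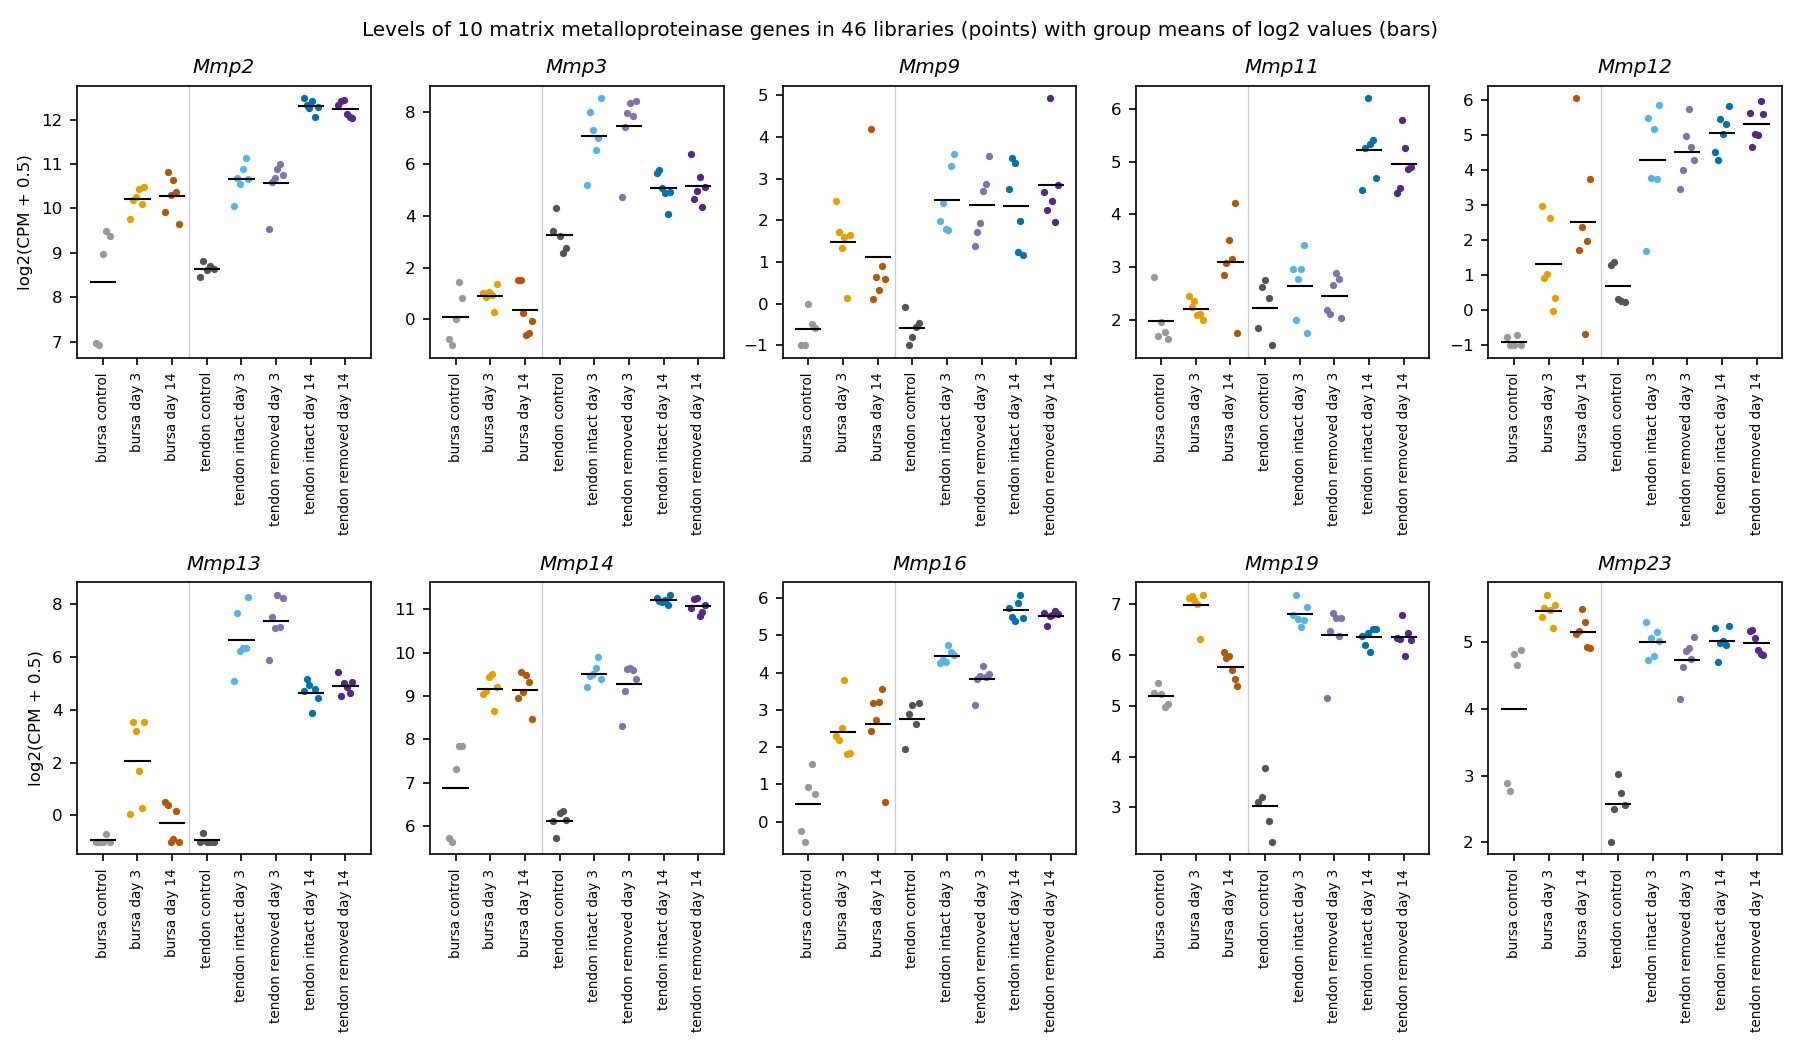
Levels of the 10 genes in all 46 libraries, as log2(CPM + 0.5), in 8 groups; points are libraries and bars are means of the log2 values. In tendon, Mmp3 and Mmp13 are highest at day 3, and Mmp2, Mmp11, Mmp14 and Mmp16 at day 14. Bursa-intact and bursa-removed points of the same day overlap, except for Mmp16 at day 3. Overlap was not counted over all features.

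In the tendon, nearly all of these genes rose after tenotomy. With the bursa intact, 9 of 10 genes rose at day 3 and 10 of 10 at day 14, and none fell. Of 16315 features tested in the tendon fit, 31.2% rose and 34.7% fell at day 3, and 33.3% rose and 33.2% fell at day 14. The median log2 fold change of the 10 genes was 3.52 at day 3 and 3.43 at day 14, beside -0.05 and 0.01 over all features. With the bursa removed, again 9 rose at day 3 and 10 at day 14, beside 29.8% of features that rose and 33.5% that fell at day 3, and 32.8% and 32.7% at day 14. The medians were 3.26 and 3.41 for the 10 genes and -0.05 and 0.00 for all features. These 4 comparisons share the same 5 control tendons.

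In the bursa, 8 of 10 genes rose at day 3 and 7 of 10 at day 14, and none fell. Over the 16245 features of the bursa fit, 22.3% rose and 24.1% fell at day 3, and 9.43% rose and 6.98% fell at day 14. The medians of the 10 genes were 1.94 and 1.79 on the log2 scale, beside -0.06 and -0.05 for all features. Mmp3 and Mmp11 were the 2 genes that were not called at day 3, and Mmp3, Mmp13 and Mmp23 the 3 at day 14. Without control bursae 1 and 2, 7 genes were called at day 3 and 5 at day 14, beside 21.8% and 6.73% of features that rose. With only the control and day 14 bursae in the fit, 4 were called at day 14, beside 5.58%.

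**Figure D3:**
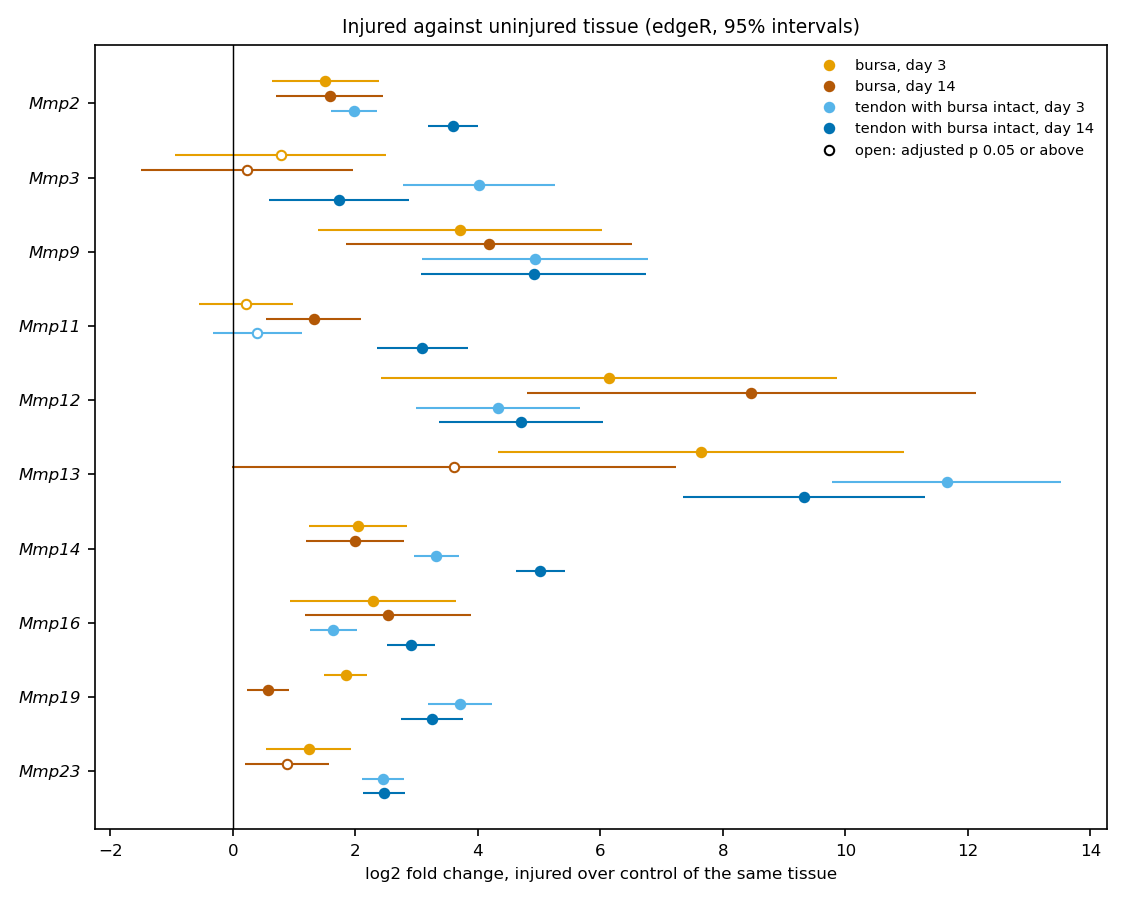
Log2 fold change of injured over control tissue for each gene (horizontal axis), in the bursa and in the bursa-intact tendon at days 3 and 14; points are edgeR estimates, lines 95% intervals, and open points have an adjusted p of 0.05 or above. All points lie at or above 0, and Mmp13 in tendon lies farthest to the right.

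Mmp13, collagenase-3, cuts fibrillar collagen within its triple helix and is a main interstitial collagenase of rodents. It was listed at 0, 0.122, 0, 0 and 0 CPM in the 5 control tendons, 2 counts in all. At day 3 it ranged from 33.7 through a median of 80.7 to 308 CPM with the bursa intact, and from 59.5 through 160.4 to 328 CPM with the bursa removed. At day 14 the same values were 14.1, 26.3 and 35.5 CPM, and 22.4, 30.4 and 42.8 CPM. Every injured tendon was above every control tendon. Pooled over libraries, the ratio to control was 3964 at day 3 with the bursa intact (95% exact counting interval 1097 to 32737) and 6149 with it removed (1702 to 50774). At day 14 it was 818 (226 to 6756) and 949 (263 to 7841). The intervals cover counting error only, and the test adjusted p was 2.24e-11, 1.01e-11, 4.17e-09 and 2.67e-09 in that order (edgeR).

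In the bursa the collagenase gene rose at day 3 and was low again at day 14. The control bursae were at 0, 0, 0, 0.108 and 0 CPM, the day 3 bursae at 0.546, 11.03, 8.62, 2.75, 0.705 and 11.01 CPM, and the day 14 bursae at 0.924, 0.80, 0, 0.0395, 0.616 and 0 CPM. Day 3 lay above control in every library, by a pooled ratio of 231 (63.6 to 1909; adjusted p = 0.00094), and day 14 overlapped control, with a ratio of 10.5 (2.74 to 89.6; adjusted p = 0.152). DESeq2 as run here gave an adjusted p of 0.0433 for the day 14 difference, while the authors' deposited table (DESeq2) has 0.126. Ordered by mean, Mmp13 ran from the day 3 tendons through the day 14 tendons and the day 3 bursa to the day 14 bursa and the controls. The only step in this order where neighbouring groups did not overlap was from the day 14 bursa-intact tendon to the day 3 bursa.

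Mmp2 and Mmp9 are the gelatinases, which cut unwound collagen and the type IV collagen of basement membranes. Mmp2 was 349, 447, 394, 414 and 399 CPM in the control tendons. With the bursa intact it ran from 1069 through a median of 1628 to 2234 CPM at day 3 and from 4259 through 5033 to 5700 CPM at day 14, so the 3 groups did not overlap. Its log2 fold change over control was 1.98 ± 0.18 (SE; adjusted p = 4.54e-10) at day 3 and 3.60 ± 0.20 (3.24e-14) at day 14. With the bursa removed the day 3 values were 740, 1690.1 and 2054 CPM (lowest, median, highest) and the day 14 values 4206, 4787 and 5555 CPM. The lowest of these was the tendon numbered 1, which also had the most muscle marker RNA. Summed fibroblast markers (5 of 5 matched) had medians of 9517 CPM in control tendons, 29217 CPM at day 3 and 52741 CPM at day 14 with the bursa intact; their part in the rise of Mmp2 was not tested.

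In the bursa Mmp2 was 125, 120, 506, 722 and 662 CPM in the controls, 872 to 1418 CPM (median 1199) at day 3 and 796 to 1810 CPM (median 1292) at day 14. Both injured groups lay above every control, with log2 fold changes of 1.51 ± 0.41 (adjusted p = 0.00726) and 1.58 ± 0.41 (0.0169). The 2 lowest controls were the bursae with the high mitochondrial share. Fitted with only the control and day 14 bursae, the day 14 adjusted p was 0.0638. In order of mean level, the day 14 tendons stood first and did not overlap with the day 3 tendons. The day 3 tendons overlapped with the injured bursae, and the 2 control groups came last and overlapped with each other.

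Mmp9, which neutrophils store in granules and macrophages and osteoclasts also make, was scarce in uninjured tissue. Control tendons held 0.449, 0, 0.0745, 0.172 and 0.225 CPM and control bursae 0, 0, 0.498, 0.215 and 0.168 CPM. Injured tendons held 2.92 to 11.6 CPM (median 4.13) at day 3 and 1.76 to 10.8 CPM (median 4.83) at day 14 with the bursa intact. With the bursa removed they held 2.11 to 11.1 CPM (median 4.70) and 3.38 to 30.0 CPM (median 5.48). All were above all controls, and the log2 fold changes ran from 4.83 ± 0.90 (adjusted p = 4.01e-05) in bursa-removed tendons at day 3 to 5.61 ± 0.89 (4.39e-06) in the same tendons at day 14. The last was 4.74 without the tendon numbered 3, and without control tendon 1 the 4 values ran from 5.58 to 6.36. No difference in Mmp9 between day 14 and day 3 was called in either kind of tendon, at -0.02 ± 0.55 with the bursa intact and 0.78 ± 0.55 with it removed.

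The bursa held 0.597 to 5.01 CPM of Mmp9 (median 2.59) at day 3 and 0.587 to 17.8 CPM (median 1.02) at day 14. Both groups were above every control, at 3.71 ± 1.09 (adjusted p = 0.0113) and 4.18 ± 1.10 (0.0178). The size of the day 14 change rests on day 14 bursa 1, at 17.8 CPM against 1.39 CPM in the next: without it the log2 fold change was 2.24 (adjusted p = 0.0368). The difference from day 3 to day 14 was not called with it (0.47 ± 0.83) or without it (-1.49, adjusted p = 0.0725). Without control bursa 3 the changes over control were 4.46 and 4.93. Without control bursae 1 and 2 the adjusted p was 0.0573 at day 3 and 0.0784 at day 14. At day 14 it was 0.0581 with only the groups compared and 0.0638 with the replicate number as a block. The authors' deposited tables (DESeq2) have 9.65e-08 for Mmp9 at day 3 and no adjusted p at day 14. Summed neutrophil markers (4 of 5 matched) had medians of 11.8, 22.9 and 10.6 CPM in control, day 3 and day 14 bursae and of 1.10, 20.4 and 5.02 CPM in the control, day 3 and day 14 tendons with the bursa intact. Osteoclast markers (3 of 5 matched) had medians of 60.6, 187 and 579 CPM in the same tendons, where Ocstamp was at 0 in all control libraries of both tissues. The sum includes Ctsk, whose levels followed those of Mmp2 over the 46 libraries (Pearson correlation 0.984), so the sum alone does not count osteoclasts. The part of either cell type in the Mmp9 values was not tested.

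Mmp3, stromelysin-1, cuts proteoglycans and fibronectin and activates other metalloproteinase precursors. It was 10.1, 19.5, 8.93, 5.43 and 6.18 CPM in control tendons. At day 3 it reached 36.4 to 372 CPM (median 144) with the bursa intact and 26.3 to 343 CPM (median 241) with it removed. At day 14 it was 16.1 to 53.6 CPM (median 31.5) and 19.9 to 84.4 CPM (median 32.7). Day 3 lay above control in every library, and at day 14 the lowest bursa-intact tendon was below the highest control. The log2 fold changes were 4.02 ± 0.60 (adjusted p = 1.74e-06) and 4.40 ± 0.61 (6.92e-07) at day 3, and 1.73 ± 0.56 (0.00784) and 1.90 ± 0.56 (0.00417) at day 14. The day 3 tendon numbered 1 was the lowest in both groups.

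In the bursa Mmp3 stayed near the limit of detection. Controls were at 0.0859, 0, 0.498, 2.20 and 1.26 CPM, day 3 bursae at 0.705 to 2.09 CPM (median 1.45) and day 14 bursae at 0.158 to 2.39 CPM (median 0.571). The groups overlapped and no change was called, with log2 differences of 0.79 (95% interval -0.94 to 2.51) and 0.23 (-1.49 to 1.96). Each of the 5 tendon groups had a higher mean than each bursa group, and control tendons did not overlap with any bursa group.

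Mmp11, stromelysin-3, is activated by furin before it leaves the cell and has little action on most matrix proteins. It was late among the 10 genes. Control tendons held 3.07, 5.67, 6.25, 4.82 and 2.36 CPM and overlapped with day 3, at 2.86 to 10.1 CPM (median 6.82) with the bursa intact and 3.59 to 6.92 CPM (median 4.94) with it removed. The day 3 log2 differences were 0.40 (95% interval -0.33 to 1.13) and 0.12 (-0.62 to 0.86). At day 14 it was 21.6 to 73.3 CPM (median 38.7) and 20.6 to 54.6 CPM (median 28.9), above every other tendon library, with log2 fold changes of 3.09 ± 0.36 (adjusted p = 3.35e-08) and 2.78 ± 0.36 (1.89e-07).

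The bursa gave the same order of days with a smaller difference in Mmp11. Controls were at 6.53, 2.74, 3.38, 2.90 and 2.61 CPM, day 3 at 3.48 to 5.01 CPM (median 4.03) and day 14 at 2.88 to 18.2 CPM (median 8.18). Day 14 overlapped control and was called at 1.32 ± 0.36 (adjusted p = 0.0226), while day 3 was not, at 0.22 (-0.54 to 0.99). The day 14 call was lost without control bursa 2 (adjusted p = 0.0571), without day 14 bursa 5 (0.0501) and with only the groups compared (0.0773).

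Mmp12, macrophage elastase, cuts elastin and is made mostly by macrophages. Control tendons held 1.95, 2.07, 0.745, 0.689 and 0.675 CPM. At day 3 the range was 2.70 to 57.4 CPM (median 24.1) with the bursa intact and 10.5 to 52.9 CPM (median 21.7) with it removed, and at day 14 it was 18.9 to 55.7 CPM (median 35.3) and 24.4 to 61.9 CPM (median 40.0). Every injured tendon was above every control, and the 4 log2 fold changes ran from 4.24 ± 0.65 (adjusted p = 2.94e-06) to 4.93 ± 0.66 (3.08e-07). The 4 injured tendon groups overlapped with each other.

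Bursae went from almost no Mmp12 to widely spread levels. The controls were at 0.0859, 0, 0, 0.108 and 0 CPM, 3 counts in all. Day 3 bursae were at 7.28, 1.38, 1.53, 5.67, 0.488 and 0.759 CPM and day 14 bursae at 65.1, 2.77, 4.67, 0.118, 3.39 and 12.7 CPM. Each was above every control, and the pooled ratios were 85.7 (29.1 to 418; adjusted p = 0.00965) and 317 (108 to 1541; adjusted p = 0.0044). Day 14 bursa 1 stood highest in CPM, while bursae 1 and 6 held 845 and 893 of the 1992 day 14 counts. The fitted day 14 log2 change was 8.46 with bursa 1 and 6.81 without it (adjusted p = 0.00535). Summed macrophage markers (4 of 5 matched) had medians of 354, 946 and 737 CPM in control, day 3 and day 14 bursae, and of 99.7, 538 and 282 CPM in control, day 3 and day 14 tendons with the bursa intact. In the tendon the markers were lower at day 14 than at day 3 while median Mmp12 was not; the part of macrophage number was not tested.

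Mmp14, the membrane-type enzyme MT1-MMP, works at the cell surface, where it cuts collagen and activates the Mmp2 precursor with the help of Timp2. It was 68.6, 51.9, 78.5, 80.7 and 70.3 CPM in control tendons. It rose to 586 to 958 CPM (median 710.1) at day 3 and to 2182 to 2575 CPM (median 2368) at day 14 with the bursa intact. With the bursa removed it was 317 to 800 CPM (median 721) and 1831 to 2439 CPM (median 2135). Control, day 3 and day 14 did not overlap. The log2 fold changes with the bursa intact were 3.32 ± 0.18 (adjusted p = 1.83e-14) and 5.02 ± 0.20 (4.78e-17), the second a 32.5-fold rise. Within the day 14 bursa-intact group its coefficient of variation was 5.55%, the lowest among the 8 groups for this gene.

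In the bursa Mmp14 was 52.3, 49.1, 158, 228 and 231 CPM in controls, 401 to 731 CPM (median 569) at day 3 and 352 to 745 CPM (median 591) at day 14. Both injured groups lay above the controls, at 2.04 ± 0.38 (adjusted p = 0.000413) and 2.00 ± 0.38 (0.0028). The 2 lowest controls were again those with the high mitochondrial share, and the calls held without them.

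Mmp16, MT3-MMP, is a second membrane-type enzyme. Control tendons held 3.37, 6.95, 8.26, 5.60 and 8.55 CPM. With the bursa intact it was 18.5 to 26.4 CPM (median 20.7) at day 3 and 41.5 to 67.3 CPM (median 48.7) at day 14, with no overlap between control, day 3 and day 14. The log2 fold changes were 1.64 ± 0.19 (adjusted p = 1.54e-08) and 2.91 ± 0.19 (8.56e-13). Bursa-removed tendons held 8.22 to 17.65 CPM (median 14.5) at day 3, where the lowest tendon lay below the highest control, and 37.5 to 50.1 CPM (median 46.6) at day 14, with changes of 1.04 ± 0.19 (adjusted p = 2.16e-05) and 2.75 ± 0.19 (2.45e-12). In the bursa it was 0.343, 0.189, 1.39, 2.42 and 1.18 CPM in controls, 3.04 to 13.4 CPM (median 4.24) at day 3 and 0.940 to 11.3 CPM (median 7.36) at day 14. The bursa changes were 2.29 ± 0.64 (adjusted p = 0.00818) and 2.53 ± 0.64 (0.0146), and the day 14 call was lost without control bursae 1 and 2 (adjusted p = 0.0651).

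Mmp19 acts on parts of basement membranes, and Mmp23 is an unusual member that is anchored in the membrane and freed by furin. They were the 2 genes whose highest group mean was in the bursa. Mmp19 was 37.9, 43.4, 37.1, 31.2 and 32.3 CPM in control bursae, 79.7 to 144 CPM (median 138) at day 3 and 41.3 to 66.5 CPM (median 56.3) at day 14. Day 3 stood above both other groups, at 1.84 ± 0.17 over control (adjusted p = 5.51e-07), and day 14 overlapped control at 0.57 ± 0.16 (0.0226). The day 14 call was lost without day 14 bursa 1 (adjusted p = 0.0566), 2 (0.0505) or 3 (0.0504). In control tendons it was 8.16, 8.66, 13.1, 6.12 and 4.5 CPM, below every injured tendon. It rose to 93.6 to 145 CPM (median 108) at day 3 and 65.9 to 91.4 CPM (median 84.0) at day 14 with the bursa intact, at 3.71 ± 0.25 (1.4e-12) and 3.25 ± 0.25 (1.75e-11). Tendons without the bursa held 35.3 to 113 CPM (median 97.6) and 63.1 to 111 CPM (median 79.9), at 3.37 ± 0.25 and 3.28 ± 0.25.

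Mmp23 was 6.87, 6.33, 27.8, 24.8 and 29.1 CPM in control bursae, 36.8 to 51.9 CPM (median 44.6) at day 3 and 29.8 to 44.7 CPM (median 35.1) at day 14. Day 3 was called at 1.24 ± 0.33 (adjusted p = 0.006). Day 14 lay above every control, but its difference of 0.88 ± 0.32 was not called (adjusted p = 0.0739). This difference was called by DESeq2 as run here (0.0306) and without control bursa 5 (0.0416). It was not called in the authors' deposited table (DESeq2, 0.0861). In tendon Mmp23 was 3.52, 5.12, 7.67, 6.20 and 5.40 CPM in controls, and 26.0 to 39.0 CPM at day 3 and 25.7 to 37.6 CPM at day 14 with the bursa intact. It stood above control at both days, at 2.45 ± 0.17 (adjusted p = 1.25e-12) and 2.47 ± 0.17 (1.44e-12). Their bursa-removed counterparts held 17.2 to 33.3 CPM (median 27.6) and 27.6 to 35.9 CPM (median 31.1), at 2.195 ± 0.17 and 2.44 ± 0.17, and every injured tendon was above every control.

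Skeletal muscle RNA was higher in control than in injured tendons, as given above. With the mean log2 CPM of the 3 muscle markers as a covariate, 6 of 10 genes were called at day 3 with the bursa intact and 5 with it removed, and 9 at day 14 in each. Over all features the calls also fell: 11.7% and 14% rose at day 3 in that order, and 15.9% and 18.3% at day 14. Mmp3, Mmp9 and Mmp12 lost their call at day 3 in both kinds of tendon and Mmp16 in the bursa-removed tendons. At day 14 only Mmp3 was not called, and its estimate turned to -0.72 with the bursa intact (adjusted p = 0.495) and -0.18 with it removed (0.868). Mmp2, Mmp13, Mmp14, Mmp19 and Mmp23 were called in all 4 comparisons. The covariate separates control from injured tendons almost completely, so muscle content and injury cannot be told apart in these libraries.

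The 2 time points differed in which genes were high. With the bursa intact, 4 genes rose from day 3 to day 14 and 2 fell, beside 22.5% and 20.6% of features. With it removed, the counts were again 4 and 2, beside 23.5% and 21.9%. The counts that fell were near the shares of all features, and neither count was tested against them. Mmp2, Mmp11, Mmp14 and Mmp16 rose in both kinds of tendon. The largest rise was that of Mmp11, at 2.69 ± 0.32 with the bursa intact (adjusted p = 1.54e-07) and 2.66 ± 0.33 with it removed (2.08e-07). Mmp2 rose by 1.62 ± 0.17 and 1.60 ± 0.17, Mmp14 by 1.70 ± 0.16 and 1.73 ± 0.16, and Mmp16 by 1.27 ± 0.16 and 1.71 ± 0.16, without overlap between days. Mmp3 and Mmp13 fell in both.

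Mmp13 fell by 2.33 on the log2 scale (SE 0.41) with the bursa intact and by 2.64 (0.41) with it removed, and Mmp3 by 2.28 (0.51) and 2.5 (0.51). The days overlapped for Mmp3 in both kinds of tendon and for Mmp13 with the bursa intact, where the tendon numbered 1 was lowest at day 3. Without both day 3 tendons numbered 1 the calls of these 2 genes held. Mmp9, Mmp12, Mmp19 and Mmp23 were not called in either kind of tendon in the main fit. Mmp19 with the bursa intact was lower at day 14 in every library, at -0.46 ± 0.20 with an adjusted p of 0.0708. That adjusted p was 0.02 without both day 3 tendons numbered 1 and 0.00261 with only the groups compared. The authors' deposited table has 0.000282 for the same difference (DESeq2).

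In the bursa 1 gene rose and 2 fell between the days, shares near those of all features. Mmp11 rose by 1.10 ± 0.34 (adjusted p = 0.0297), and Mmp13 fell by 4.04 (SE 1.05; 0.0114) and Mmp19 by 1.27 (SE 0.15; 3.28e-05), beside 9.57% of features that rose and 12.3% that fell. Only for Mmp19 did the days not overlap. Mmp11 lost its call without day 14 bursa 3 (adjusted p = 0.0589) or 5 (0.0879) or without day 3 bursa 4 (0.0597) or 6 (0.0591). With the replicate number as a block, only Mmp19 was called, with 0.0567 for Mmp11 and 0.0783 for Mmp13. Mmp2 and Mmp14, which rose between the days in tendon, differed by 0.07 (95% interval -0.73 to 0.87) and -0.05 (-0.77 to 0.67) in bursa.

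**Figure D4:**
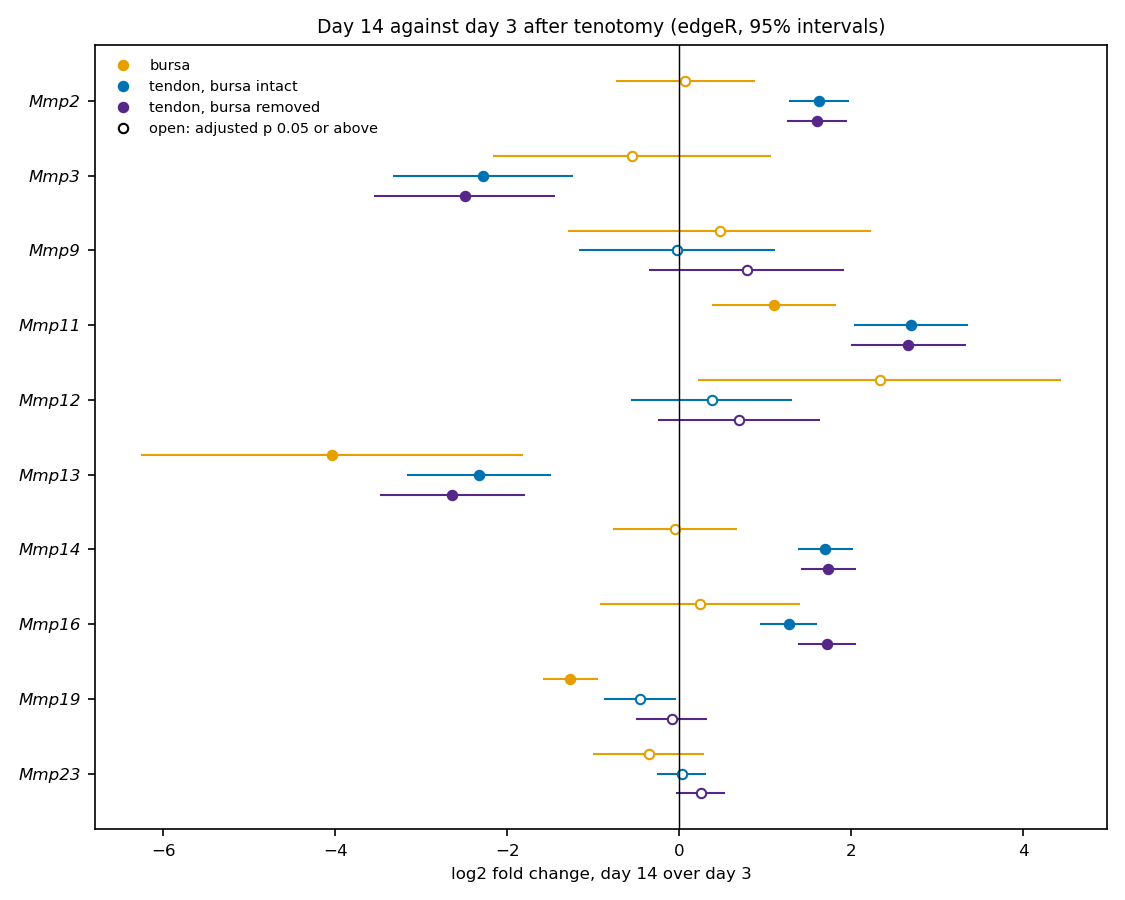
Log2 fold change of day 14 over day 3 for each gene (horizontal axis) in bursa, bursa-intact tendon and bursa-removed tendon; points are edgeR estimates, lines 95% intervals, and open points have an adjusted p of 0.05 or above. In both kinds of tendon Mmp2, Mmp11, Mmp14 and Mmp16 lie to the right of 0 and Mmp3 and Mmp13 to the left.

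Removal of the bursa gave no called difference in any of the 10 genes at either day by edgeR or DESeq2 as run here, while the authors' deposited table has an adjusted p under 0.05 for Mmp16 at day 3. By edgeR 0 of 10 genes and 0% of 16315 features were called higher, and 0% lower, at day 3, and the same at day 14. At an unadjusted p under 0.05, 1 of the 10 genes and 1283 features passed at day 3, and 0 of 10 and 205 features at day 14. With the replicate number as a block, which pairs these tendons, 2 of 10 genes and 1720 features passed at day 3 and 0 of 10 and 265 features at day 14, and no feature was called. The 2 were Mmp16 and Mmp13, the latter at 0.73 ± 0.24 (unadjusted p = 0.00798, adjusted p = 0.374, edgeR). DESeq2 called 8 features at day 3 and 1 at day 14, and none of the 10 genes at either day. The 95% intervals given next are from the fit without the block and take no account of the pairing by number. For Mmp2 they ran from -0.38 to 0.30 at day 3 and from -0.40 to 0.28 at day 14, and for Mmp14 from -0.49 to 0.15 and from -0.45 to 0.18. The widest were those of Mmp9, -1.25 to 1.03 and -0.43 to 1.83. Mmp13 differed by 0.57 (-0.23 to 1.36) at day 3 in this fit, against 0.73 ± 0.24 with the block. At day 14 the fit without the block gave 0.26 (-0.56 to 1.07).

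Mmp16 was the gene that passed the unadjusted threshold. Its day 3 tendons held 18.5, 19.8, 19.0, 26.4, 23.1 and 21.7 CPM with the bursa intact and 8.22, 13.7, 14.6, 17.6, 14.3 and 15.2 CPM with it removed, in the order of their numbers. The groups did not overlap, and the bursa-removed tendon was lower in 6 of 6 pairs of the same number. The log2 difference was -0.60 ± 0.16 (95% interval -0.94 to -0.27; unadjusted p = 0.00101), and it failed the correction over all features (adjusted p = 0.622). The adjusted p was 0.287 with the replicate number as a block and 0.155 by DESeq2. In the authors' deposited table, which gives bursa-intact over bursa-removed tendon, the log2 fold change was 0.61 with an adjusted p of 0.00182, and that table has 51 of 7929 adjusted p-values under 0.05 and in this direction (0.643%). The estimate was -0.54 without both day 3 tendons numbered 1. At day 14 the groups overlapped, at 41.5 to 67.3 CPM with the bursa intact and 37.5 to 50.1 CPM with it removed, and the difference was -0.16 (-0.48 to 0.16).

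The effect of removal was also compared between days. No gene of the 10 differed, beside 0% of features higher and 0% lower at day 14 than at day 3 by edgeR, with 251 features and 0 of the 10 genes at an unadjusted p under 0.05 and none called by DESeq2. For Mmp16 the day 14 effect minus the day 3 effect was 0.44 (95% interval -0.02 to 0.91). With the replicate block it was 0.47 ± 0.21 (unadjusted p = 0.0353, adjusted p = 1, edgeR), and it was the 1 gene of the 10, with 409 features, at an unadjusted p under 0.05.

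**Figure D5:**
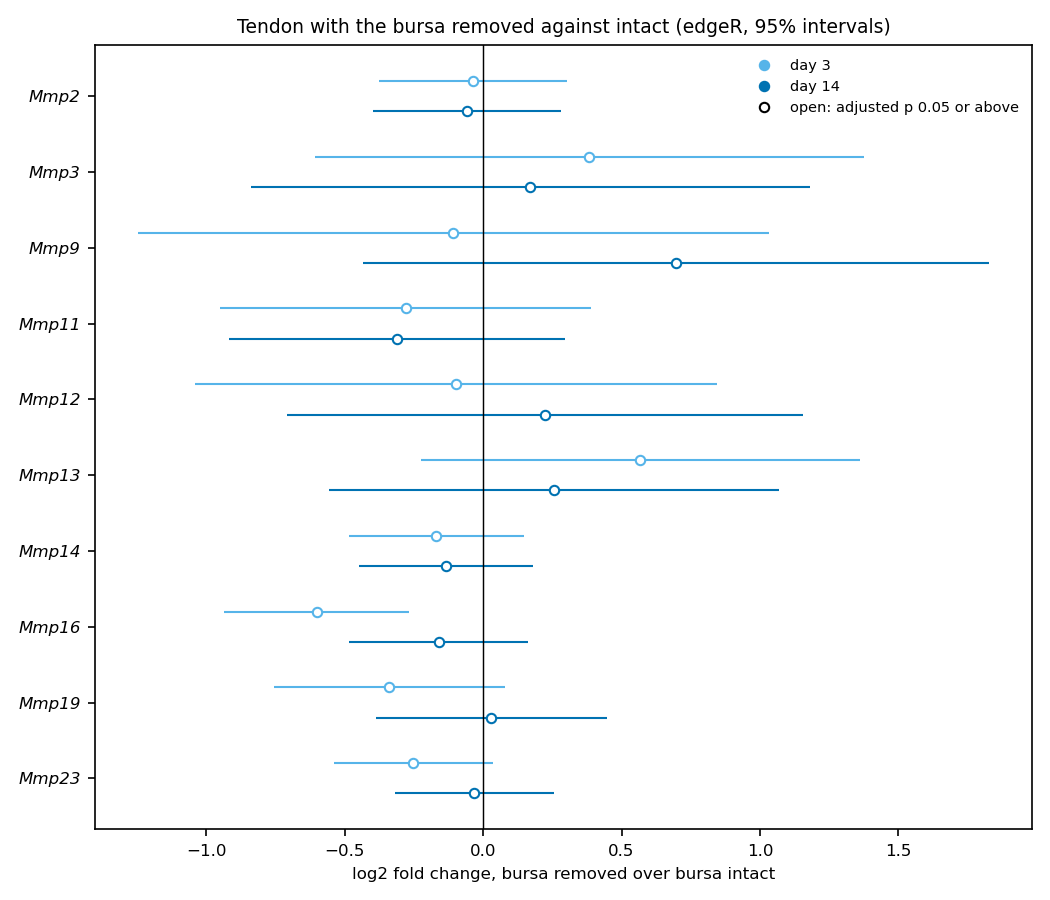
Log2 fold change of bursa-removed over bursa-intact tendon for each gene (horizontal axis) at days 3 and 14; points are edgeR estimates and lines 95% intervals, and all points are open because no adjusted p is under 0.05. The fit had no replicate block. Of its 20 intervals, that of Mmp16 at day 3 is the only one that does not cross 0.

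The 2 uninjured tissues differed in 6 of the 10 genes. Mmp14, Mmp19 and Mmp23 were higher in control bursa than in control tendon, by 1.03 ± 0.28 (adjusted p = 0.00179), 2.15 ± 0.23 (3.14e-10) and 1.77 ± 0.26 (3.98e-07). Mmp3, Mmp12 and Mmp16 were lower, at -3.48 ± 0.70 (6.58e-05), -4.93 ± 1.82 (0.0217) and -2.45 ± 0.45 (1.87e-05). Of 17144 features in the fit of both tissues, 29.5% were higher and 22.2% lower in bursa. The counts of these genes were thus near the shares of all features. Mmp19 was higher in every bursa, and Mmp3, Mmp12 and Mmp16 lower in every bursa. The call for Mmp12 was lost without control bursa 5 (adjusted p = 0.0541), without control tendon 2 (0.0514), without control bursae 1 and 2 (0.0666) and with the replicate block (0.0612), and that for Mmp14 with only the 2 control groups in the fit (0.0892). The differences stayed about as large, at -5.08 to -4.53 for Mmp12 and 0.99 for Mmp14. Mmp2 was called higher in bursa without control bursae 1 and 2 (0.64, adjusted p = 0.0147), against 0.08 with them.

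The response to injury was then compared between tissues as the bursa's log2 change minus that of the bursa-intact tendon. At day 3 it was smaller in bursa for 4 genes and larger for none, beside 14.6% and 9.85% of features. These were Mmp3 (-3.44 ± 0.94, adjusted p = 0.00605), Mmp19 (-1.97 ± 0.30, 4.79e-06), Mmp14 (-1.37 ± 0.37, 0.00547) and Mmp23 (-1.30 ± 0.34, 0.00413). At day 14 it was smaller for 5 and larger for none, beside 19.5% and 15.6%. These were Mmp14 (-3.05 ± 0.38, 8.13e-08), Mmp19 (-2.71 ± 0.30, 8.74e-09), Mmp2 (-2.04 ± 0.41, 0.000169), Mmp11 (-1.79 ± 0.50, 0.00504) and Mmp23 (-1.62 ± 0.34, 0.000294).

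The day 3 difference of Mmp3 lost its call without control bursa 4 (-2.79, adjusted p = 0.0524), the library with tendon cell and cartilage markers. With only the groups compared, 2 genes were called, beside 7.04% of features that were smaller in bursa. Mmp14 (-1.26, adjusted p = 0.0571) and Mmp23 (-1.18, 0.0684) were not, with differences about as large. Without control bursae 1 and 2 Mmp2 was also called, at -1.11 (0.00259). For Mmp19 and Mmp23 the control bursae had higher means than the control tendons (36.4 against 8.11 CPM, and 19.0 against 5.58 CPM). Means of Mmp19 in injured bursa and bursa-intact tendon were 128 and 113 CPM at day 3, and 54.8 and 81.5 CPM at day 14. Those of Mmp23 were 44.2 and 32.1 CPM at day 3, and 35.6 and 32.3 CPM at day 14.

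The inhibitors were described as a list of 6 genes, all tested. With the bursa intact, 2 rose and 3 fell in tendon at day 3, and 3 rose and 2 fell at day 14, and the same counts held with the bursa removed. Timp1, an inhibitor of most secreted metalloproteinases, rose by 3.01 ± 0.20 at day 3, from 42.1 to 52.5 CPM in controls to 282 to 555 CPM, and fell by 1.10 (SE 0.18) from there to day 14. Timp3, which is bound to matrix, went the other way. It fell by 2.53 (SE 0.18) at day 3, from 269 to 439 CPM in controls to 52.6 to 83.8 CPM, and lay at 287 to 544 CPM at day 14, a difference from control of 0.16 ± 0.17. Timp2 was 363 to 565 CPM in controls and 417 to 598 CPM at day 3, and rose to 1986 to 2441 CPM at day 14 (2.29 ± 0.13).

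Timp4 was lower than control at both days in tendon, at -3.80 ± 0.41 and -2.91 ± 0.39, and so was Reck, a membrane-anchored inhibitor, at -2.16 ± 0.15 and -1.21 ± 0.15. A2m, a broad protease trap and acute-phase protein of the rat, was at 0 counts in all 10 control libraries of both tissues. It was at least 116-fold higher in tendon at day 3 and at least 158-fold at day 14 with the bursa intact, against a floor of 3 counts over the control group. In bursa at day 3, 2 inhibitors rose and 3 fell: Timp1 rose by 2.97 ± 0.36 and A2m was at least 152-fold higher, while Timp3 (-1.68 ± 0.22), Timp4 (-1.83 ± 0.28) and Reck (-1.21 ± 0.33) fell. At day 14 only A2m was called in bursa, at least 24.4-fold higher. From day 3 to day 14 in tendon 3 inhibitors rose and 1 fell in each kind of tendon, and in bursa 2 rose and 2 fell.

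Activating enzymes and partners of the family gave 7 tested genes of 10. In tendon 6 rose at day 3 with the bursa intact and 5 with it removed, and 3 and 4 at day 14, and none fell. Plau, urokinase, which starts a cascade that activates metalloproteinases, rose by 1.29 ± 0.14 at day 3 and was at -0.07 ± 0.14 at day 14. Furin, which activates Mmp11, Mmp14 and Mmp23, rose by 1.06 ± 0.09 and 0.81 ± 0.09. Lcn2, which binds Mmp9, rose by 2.81 ± 0.31 at day 3 and was at 0.56 ± 0.31 at day 14. In bursa 4 rose at day 3 and 1 at day 14, and 5 fell between the days.

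The other metalloproteinases gave 4 tested genes of 12 in each tissue, and 1 of them rose in tendon. In bursa-intact tendon at day 3 that was Mmp10, which rose by 3.75 ± 0.67, while Mmp15 (-0.48 ± 0.13), Mmp17 (-0.51 ± 0.20) and Mmp28 (-1.33 ± 0.20) fell. With the bursa removed 1 rose and 2 fell. At day 14 Mmp10 was the 1 gene called in each kind of tendon, at 1.57 ± 0.68 with the bursa intact. In bursa Mmp27 (-2.79 ± 0.92) and Mmp28 (-1.51 ± 0.21) fell at day 3, Mmp28 was still lower at day 14 (-0.65 ± 0.21), and both rose between the days.

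Substrates were followed through 10 matrix genes. In tendon 5 of 8 tested rose and 2 fell at day 3, and 6 rose and 2 fell at day 14, in each kind of tendon. Col1a1, the main collagen of tendon, rose by 2.32 ± 0.27 and 3.13 ± 0.28 with the bursa intact, and Col3a1, a collagen of early scar, by 2.88 ± 0.18 and 3.27 ± 0.19. Col2a1, a cartilage collagen (-5.42 ± 1.28 and -3.41 ± 1.15), and Dcn, a proteoglycan that binds collagen fibrils (-1.21 ± 0.22 and -0.95 ± 0.22), fell. In bursa 5 of 7 tested rose at day 3 and 4 at day 14, and none fell.

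Upstream signals were followed through 13 cytokine and AP-1 genes, of which 11 were tested. In tendon 7 rose and 2 fell at day 3 in each kind of tendon, and 7 rose and 1 fell at day 14 with the bursa intact, and 8 and 1 with it removed. In bursa 7 rose and 3 fell at day 3, and 3 rose and none fell at day 14. Il1b, which induces metalloproteinases in fibroblasts, rose by 4.32 ± 0.46 at day 3 and 3.60 ± 0.47 at day 14 in bursa-intact tendon. Osm rose by 3.09 ± 0.45 at day 3 and was at 0.63 ± 0.46 at day 14. Of the AP-1 genes, Fosl1 rose by 3.5 ± 0.40 and 2.31 ± 0.39, Junb by 1.19 ± 0.23 and 0.59 ± 0.23, Jun fell by 0.90 (SE 0.15) and 0.52 (0.15), and Fos was not called (-0.59 ± 0.41 and -0.57 ± 0.41). Runx2 rose by 2.74 ± 0.17 and 2.11 ± 0.17. From day 3 to day 14 in bursa-intact tendon 3 genes of this list rose and 5 fell. No gene of any of these 5 lists was called between bursa-removed and bursa-intact tendon at either day.

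The genes whose pattern over the 46 libraries was most like that of each member were named by the Pearson correlation of log2(CPM + 0.5) among 12289 symbols with a mean of at least 1 CPM. The libraries share the 8 groups, so these correlations describe group differences and carry no p. For Mmp14 the highest were Postn (0.985), C1qtnf6 (0.974) and Col5a1 (0.971), and for Mmp2 Ptgfrn (0.985), Ctsk (0.984) and Ppic (0.983). For Mmp3 the highest was Mmp10 (0.970), followed by Sae1 (0.905) and Akr1a1 (0.900). For Mmp13 they were Mab21l3 (0.934), Kcne3 (0.934) and Ppia (0.931), and for Mmp16 C1qtnf3 (0.967), Aspn (0.957) and Ndrg4 (0.953). For Mmp9 they were Tmem200a (0.852), A2m (0.838) and Ptdss1 (0.832), and for Mmp12 Golga5 (0.855), Manf (0.852) and Dynlt1 (0.851), the lowest values of the 10. For Mmp11 they were Kcng1 (0.929), Cpne4 (0.917) and Fbln7 (0.909), for Mmp19 Glmp (0.970), Prkcsh (0.95) and LOC108348250 (0.947), and for Mmp23 Pxdn (0.946), Maf (0.937) and Lamb1 (0.934). Among the 10 genes themselves, the pair most alike was Mmp2 and Mmp14 (0.970 over all libraries, 0.978 in bursa and 0.981 in tendon), followed by Mmp3 and Mmp13 at 0.880 over all libraries. The least alike were Mmp3 and Mmp23 (0.105).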

How the data were processed

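RNA sequencing libraries were made from poly(A) RNA of 46 tissue samples. The authors deposited estimated counts per transcript for every library, rounded to whole numbers. Per the submitters' processing notes, reads were demultiplexed with bcl2fastq 2.19, quantified with kallisto 0.44.0 and tested with DESeq2; the sources name neither a genome build nor an annotation. The authors also deposited 11 tables of gene comparisons. Per the file headers these hold the mean signal of normalised counts per gene, the log2 fold change with its standard error, a test score (the Wald statistic), a p-value and an adjusted p-value.

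The count table gives transcript identifiers and the comparison tables give symbols. Symbols were therefore matched to transcripts by value, where 1 transcript or the sum of 2 gave the deposited means of a symbol within 0.5 counts or 0.2% (or, where a single candidate was left, within 5% for 1 transcript and 1% for a pair). This matched 15084 of 23747 symbols and 17774 of 31715 transcripts, which held 91.0% of counts. Log2 fold changes recomputed from the matched counts differed from 126980 deposited ones by a median of 0.00449, and 99.0% lay within 0.1. Only symbols above a minimum mean in both groups were compared, and the lowest correlation in a comparison was 0.884. The matching used the means of the same comparisons, so this agreement is partly built in and is not a separate check of the names. The match of Mmp9 was within 3.4% and that of Mmp3 within 1.0% of the deposited means. Unmatched transcripts entered the fits as features of their own. Listed genes without a match are counted as not tested.

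Counts were tested with edgeR 4.0.16 (quasi-likelihood test, filterByExpr, TMM scaling) in R 4.3.3, with Benjamini-Hochberg adjustment over all features of a fit and calls at an adjusted p under 0.05. The bursa comparisons used all 17 bursa libraries, the tendon comparisons all 29 tendon libraries, and comparisons across tissues all 46. Errors are standard errors of log2 fold changes. Ratios against control groups with 3 or fewer counts were pooled over libraries with exact 95% intervals. The tests were tried on simulated data: of 100 features with a planted 2-fold difference between bursa-removed and bursa-intact tendon at day 3, among 16121 simulated, 81 were called. For day 3 against control bursa 61 of 100 were called among 16021 features, and for control bursa against control tendon 64 of 100 among 16855. The simulations also held 100, 99 and 100 features with a planted 4-fold difference, in that order, and no difference elsewhere. Features without a planted difference gave 6, 5 and 17 calls. With so many planted differences the adjustment is less strict than where few exist, and that case was not simulated. Alternatives were DESeq2 1.42.0, RLE scaling, no low-count filter, only the groups compared, the replicate number as a block, a skeletal muscle covariate, leaving out each library, and leaving out control bursae 1 and 2. Leaving out both day 3 tendons numbered 1 was added after seeing the data. Promoters came from RefSeq (GRCr8).

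Bursa-removed and bursa-intact tendons with the same label number deviated together from their group means, with correlations of 0.110 to 0.614 at day 3 and 0.275 to 0.615 at day 14 over features of at least 10 CPM. The numbers were therefore taken to pair these tendons, a pairing that comes from the numbers and the data and not from a label naming a shared rat. The same held for day 3 bursae and bursa-intact tendons (0.161 to 0.347). At day 14 the correlations of these tissues were also positive, from 0.0691 to 0.313. For controls they ran from -0.260 to 0.311, with negative values among them. Bursa-removed tendons 3 and 4 at day 3 and 2 at day 14 correlated most with a bursa-intact tendon of another number. Bursa 5 at day 3 and bursae 4 and 6 at day 14 likewise correlated most with a tendon of another number. Among control bursae only 3 correlated most with the tendon of its own number. The pairing is therefore not certain for every number. The main fits used no block.

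The 10 genes, the gene lists, the motifs and the tests were chosen with earlier results of these data known. Every comparison names all 10 genes; other genes are named from the fixed lists, or as the 3 symbols most correlated with a member. One listed gene is not reported here by name.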

Additional observations from a re-analysis of the deposited data

Results flagged for a closer look

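In 8 of 80 gene and group combinations, 1 library stood far from the rest of its group. The cutoff flags about 1 in 20 if values are normal, which was not checked for these CPM. No number expected by chance is therefore given. Day 14 bursa 1 was the highest for both Mmp9 (17.8 CPM, next 1.39 CPM) and Mmp12 (65.1 CPM, next 12.7 CPM). Mmp9 was 30.01 CPM in the day 14 bursa-removed tendon numbered 3, with the next at 6.71 CPM. Mmp11 was 6.53 CPM in control bursa 1, one of the 2 with a high mitochondrial share, and at most 3.38 CPM in the other controls. Mmp13 was 0.108 CPM in control bursa 4 and 0.122 CPM in control tendon 2, and listed at 0 in the other controls of each tissue. A single value above 0 among zeros is always flagged by this rule. Mmp16 was 13.4 CPM in day 3 bursa 4, with the next at 5.26 CPM. Mmp19 was 79.7 CPM in day 3 bursa 5, below the 128 CPM of the next lowest.

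The response to injury differed between bursa and bursa-intact tendon in 9 tests of the difference itself (edgeR). At day 3 the bursa's log2 change minus that of the tendon was -3.44 for Mmp3, -1.37 for Mmp14, -1.97 for Mmp19 and -1.30 for Mmp23. At day 14 it was -2.04 for Mmp2, -1.79 for Mmp11, -3.05 for Mmp14, -2.71 for Mmp19 and -1.62 for Mmp23.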

How the results depend on the processing

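Leaving out 1 library at a time gave 2040 values, of which 2027 kept direction and call, 12 lost a call, 1 gained one and no called value reversed. The other alternatives gave 946 values: 911 kept both, 21 lost a call, 12 gained one and 2 reversed. The counts of genes called moved by more than 1.5 times in 4 cases. With only the groups compared, 4 genes in place of 7 were called between day 14 and control bursae. For the day 3 response in bursa minus tendon it was 2 in place of 4. The muscle covariate left 5 of 9 genes called in bursa-removed tendon at day 3, and it reversed Mmp3 at day 14, to a log2 change of -0.72 with the bursa intact and -0.18 with it removed. With the replicate block, 1 in place of 3 genes was called between day 14 and day 3 bursae. It was 6 in place of 7 between day 14 and control bursae, and 5 in place of 6 between the control tissues. Over all features 9.06% rose and 11.3% fell, 7.84% rose and 5.02% fell, and 29.4% were higher and 24.2% lower in bursa, in that order. The block changed no call in tendon. DESeq2 also called Mmp13 in the day 3 response (-4.12, adjusted p = 0.0493), and Mmp12 (3.85, 0.016) and Mmp13 (-5.72, 0.00294) in the day 14 response. The covariate added Mmp12 (1.16, 0.0334) and Mmp23 (0.40, 0.0107) between the days in bursa-removed tendon. With only the groups compared Mmp23 was called between the days in bursa (-0.36, 0.029), and the authors' deposited table has 0.0151 for it (DESeq2). The causes of these changes were not tested. Mmp13 in both tissues and Mmp12 in bursa rest on 2 or 3 counts over the control group, which limits the precision of their ratios.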

Other observations

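Markers of dividing cells (4 of 5 matched) had summed medians of 10.7 CPM in control tendons, 343 CPM at day 3 and 88.1 CPM at day 14 with the bursa intact, and of 355 and 96.9 CPM with it removed. In bursa they were 9.73, 238 and 29.4 CPM. The day 3 range did not overlap with control or day 14 in either tissue. Endothelial markers (4 of 5 matched) differed less between groups, with medians of 461 CPM in control tendons, 486 and 399.6 CPM in bursa-intact tendons at days 3 and 14, and 779, 895.5 and 719 CPM in control, day 3 and day 14 bursae. The part of either in the metalloproteinase levels was not tested.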
